A study of Mus musculus with 9 samples.

Results

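Genes of the interferon response and of major histocompatibility complex (MHC) class I antigen presentation were followed in bulk RNA-seq of whole mouse retina at postnatal day 21 (P21). The set held 9 genes, taken by symbol from the 55487 genes of the expression table: Isg15, Ifit1, Ifit3, Irf7, Bst2, B2m, H2-K1, H2-D1 and Apobec3. All 9 were found, and 8 of them passed the filter on low values, at least 0.5 CPM (reads per 1000000 reads counted on genes) in at least 3 libraries, which left out Isg15. TET enzymes oxidize 5-methylcytosine, and the study asked what their loss does to the developing retina. The groups were Cre− retinas (genotype label WT), tHet retinas, which carry the Chx10-Cre-GFP transgene and 1 floxed allele each of Tet1, Tet2 and Tet3, and Tet tcKO retinas, which carry the same transgene with both alleles of the 3 genes floxed, each with 3 libraries made from the retinas of 2 animals and all labelled C57 BL/6J. The Chx10-Cre-GFP transgene acts in retinal progenitor cells, and its activity is known to be mosaic. Its activity in the blood-derived or vascular cells of the tissue was not tested here. Cre+ animals were in-crossed, whereas Cre− animals had Cre− breeders, so genotype and breeding line cannot be told apart in a comparison with Cre−.

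Type I and type II interferons bind cell surface receptors and signal through JAK kinases and STAT proteins, which act with IRF family factors on interferon-stimulated response elements and gamma-activated sites in the promoters of target genes. The products include antiviral effectors, restriction factors and the machinery that displays peptides on MHC class I, in which a heavy chain pairs with beta-2 microglobulin. The healthy retina is an immune-privileged tissue with low MHC class I levels in neurons, and microglia and vascular cells are known as cells with higher levels.

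The promoters of the genes are shown first, because the response element is the feature by which interferon-stimulated genes are known. RefSeq promoters of 300 bases, 250 before to 50 after the start site on build GRCm38.p6, were matched for all 9 genes, with 11 entries because H2-K1 and Apobec3 each have 2. The core of the interferon-stimulated response element, GAAA repeated after 2 bases of any kind (GAAANNGAAA), was searched on both strands with overlapping matches counted. It was found in 6 of the 9 genes, with 11 matches in all, and in 3.44% of the 32851 promoters of the same length. The 6 windows below hold every match with 25 bases on each side, on the strand of the gene, and capitals mark the matches.
Isg15, chr4:156200850-156200921, minus strand: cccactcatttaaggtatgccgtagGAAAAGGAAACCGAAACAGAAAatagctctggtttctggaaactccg
Ifit1, chr19:34640760-34640838, plus strand: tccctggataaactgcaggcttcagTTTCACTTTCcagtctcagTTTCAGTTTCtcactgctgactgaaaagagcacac
Ifit3, chr19:34583348-34583441, plus strand: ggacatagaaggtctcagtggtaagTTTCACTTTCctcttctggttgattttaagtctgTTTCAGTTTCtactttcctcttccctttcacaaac
Bst2, chr8:71537562-71537627, minus strand: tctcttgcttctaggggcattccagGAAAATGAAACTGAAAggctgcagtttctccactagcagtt
B2m, chr2:122147523-122147582, plus strand: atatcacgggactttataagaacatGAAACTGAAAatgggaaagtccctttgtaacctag
Apobec3, chr15:79892243-79892302, plus strand: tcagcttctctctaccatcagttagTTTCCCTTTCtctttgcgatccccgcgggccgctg
Isg15 held 3 overlapping matches and Bst2 held 2 overlapping matches, while Ifit1 and Ifit3 each held 2 separate ones, both read on the opposite strand. Irf7, H2-K1 and H2-D1 held no match to these letters in their windows, and for Apobec3 only the first of the 2 entries held one. The gamma-activated site, TTCNNNGAA, was found in 1 of the 9 genes, Bst2, and in 8.30% of all promoters.

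The libraries held between 9627927 and 21108256 reads counted on genes, so that 3 reads, taken as the smallest detectable level, stood at 0.142 to 0.312 CPM. Whole-gene levels of the targeted genes do not isolate the floxed exons: Tet3 had a mean of 120 CPM in Tet tcKO and 235 in Cre−, whereas Tet1 and Tet2 had overlapping ranges in all 3 genotypes. Markers of retinal neurons were present in every library, and their summed level was 7060 to 8780 CPM in Cre−, 6510 to 7610 CPM in tHet and 1840 to 3190 CPM in Tet tcKO. These are bulk samples, in which fewer cells of a type and less RNA per cell cannot be told apart, and this holds for every difference given here.

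In Cre−, B2m and H2-D1 had the highest means of the set per length and Isg15 and Apobec3 the lowest. Levels were divided by the merged length of all annotated exons of each gene in GENCODE release 21 and are given as CPM per kb. This length was 9454 bp for Apobec3, 3776 bp for Irf7 and 756 bp for Isg15, so the order depends in part on it. In plain CPM the Cre− mean of Apobec3, 1.36, lay above those of Bst2, 0.43, and Isg15, 0.189. In Cre−, B2m stood at 11.7 ± 2.04 CPM per kb (SD, n = 3), H2-D1 at 7.79 ± 0.63, Ifit3 at 3.38 ± 0.0251 and Irf7 at 1.94 ± 0.325. H2-K1 followed at 1.70 ± 0.118 CPM per kb, Ifit1 at 1.18 ± 0.195, Bst2 at 0.477 ± 0.300, Isg15 at 0.250 ± 0.0802 and Apobec3 at 0.144 ± 0.0444. Irf7 and H2-K1 did not differ beyond their spread in this order, and neither did Bst2 and Isg15 or Isg15 and Apobec3. In Tet tcKO, H2-D1 had the highest mean, 13.5 ± 5.21 CPM per kb, with B2m at 10.1 ± 2.83, so that their ranges overlapped. Irf7, above H2-K1 and Ifit1 in Cre−, had a lower mean than both in Tet tcKO, 0.683 ± 0.376 CPM per kb.

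**Figure D1:**
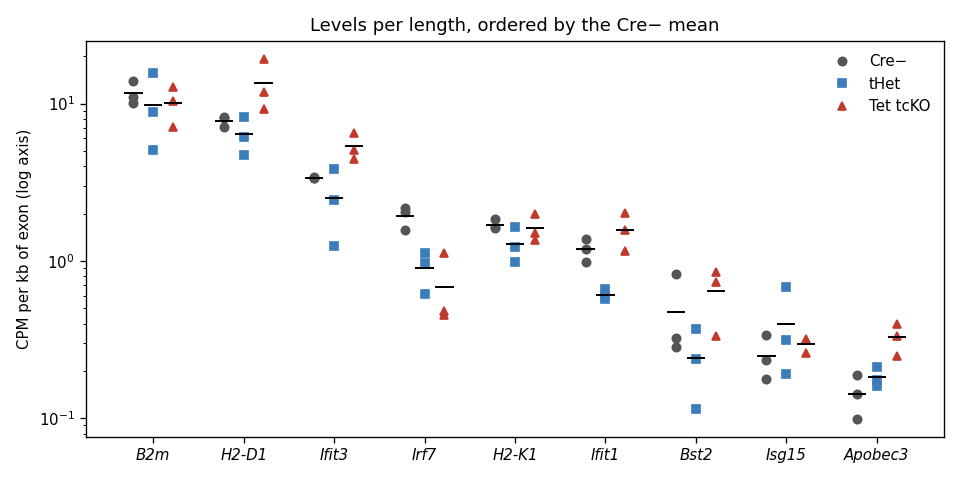
CPM per kb of exon (log axis) of each gene in every library of Cre−, tHet and Tet tcKO, with genes ordered by their Cre− mean and short lines at the group means. B2m and H2-D1 lie highest in all 3 genotypes, and Irf7 lies lower in tHet and Tet tcKO than in Cre− in every library.

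The antiviral effectors Ifit1 and Ifit3 encode tetratricopeptide proteins that act on viral RNA and on antiviral signalling. Ifit1 was at 3.18, 2.61 and 3.65 CPM in Cre− replicates 1, 2 and 3, at 1.58, 1.77 and 1.52 CPM in tHet, and at 5.34, 4.15 and 3.07 CPM in Tet tcKO. Every tHet library lay below every library of both other genotypes, while Cre− and Tet tcKO overlapped. In limma, the log2 fold change (log2FC, on log2(CPM + 0.5), which understates changes of low genes) of Ifit1 was 1.12 ± 0.32 (SE) in Tet tcKO versus tHet with an adjusted p of 0.0409, 0.34 ± 0.32 in Tet tcKO versus Cre− with an adjusted p of 0.749, and −0.77 ± 0.32 in tHet versus Cre− with an adjusted p of 1. None of these passed the threshold of an adjusted p under 0.01 with an absolute log2FC of at least 1. Without the ribosomal RNA gene CT010467.1 in the totals, limma gave Ifit1 an adjusted p of 0.00829 in Tet tcKO versus tHet, which is past the threshold, and DESeq2 gave 0.00086. Over all alternatives the adjusted p for Ifit1 in this comparison ran from 0.00086 to 0.231 (limma, edgeR or DESeq2).

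Ifit3 was at 5.89, 5.85 and 5.94 CPM in Cre−, at 4.25, 2.18 and 6.73 CPM in tHet, and at 11.3, 8.90 and 7.77 CPM in Tet tcKO. All Tet tcKO libraries lay above all others, and tHet replicate 3 lay above the Cre− libraries. The limma log2FC was 0.60 ± 0.33 in Tet tcKO versus Cre− (adjusted p of 0.42) and 1.10 ± 0.33 in Tet tcKO versus tHet (adjusted p of 0.0557). Without tHet replicate 3 the latter became 1.44 with an adjusted p of 0.00522 in limma, past the threshold, the lowest of a range up to 0.292 over all alternatives. Of the 100-base windows of Ifit3 transcripts, 31.7% also occur in its near-identical neighbour Ifit3b, so the division of reads between the pair is uncertain. Ifit3b itself had means of 8.66 CPM in Tet tcKO, beside 6.11 in Cre− and 5.11 in tHet, and was not called.

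Isg15, which encodes a ubiquitin-like modifier, was close to the limit of detection. It had 3, 4 and 2 reads in Cre−, 2, 5 and 5 reads in tHet and 4, 3 and 4 reads in Tet tcKO. The highest library, tHet replicate 2, reached 0.519 CPM, and the groups overlapped. At these counts no difference between genotypes was detectable, and no fold change is given. Bst2, the membrane protein tetherin that holds budding viruses at the cell surface, was also low. It was at 0.294, 0.254 and 0.743 CPM in Cre−, at 0.216, 0.104 and 0.332 CPM in tHet and at 0.772, 0.659 and 0.301 CPM in Tet tcKO, from 1 read in tHet replicate 2 to 13 reads in Tet tcKO replicate 1. The groups overlapped in every comparison, and limma gave log2FC values of 0.22 ± 0.32 against Cre− and 0.57 ± 0.32 against tHet, with adjusted p of 0.879 and 0.392.

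Irf7, the transcription factor that amplifies type I interferon production and is itself interferon-inducible, had log2FC values of the opposite sign from Ifit1 and Ifit3 in both comparisons of Tet tcKO with a control. It was at 8.24, 5.92 and 7.76 CPM in Cre−, at 4.25, 3.64 and 2.32 CPM in tHet, and at 4.22, 1.71 and 1.81 CPM in Tet tcKO. All Cre− libraries lay above all libraries with Cre, whereas tHet and Tet tcKO overlapped. The limma log2FC was −1.42 ± 0.35 in Tet tcKO versus Cre−, with a 95% interval from −2.15 to −0.69 and an adjusted p of 0.0143, just outside the threshold. A block for replicate number, fitted over all 9 libraries, ties libraries of the same number, although these come from different animals. With this block, limma gave the same log2FC an adjusted p of 0.00152, past the threshold. Irf7 was also called without Tet tcKO replicate 1 (log2FC of −1.78, limma adjusted p of 0.00726) and without tHet replicate 3 (limma adjusted p of 0.00427). Over all alternatives its adjusted p ran from 0.00108 to 0.0825 (limma, edgeR or DESeq2). In tHet versus Cre− the limma log2FC was −1.02 ± 0.35 with an adjusted p of 0.929, and in Tet tcKO versus tHet it was −0.40 ± 0.35 with an adjusted p of 0.635. The exons of Irf7 on chromosome 7 overlap those of Phrf1 on the opposite strand by 45 bp, and the strand setting of the counting is not given in the sources used here. Phrf1 stood at 142 ± 24.2 CPM in Tet tcKO and 150 ± 19.5 in Cre−, with a limma adjusted p of 0.944.

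Of the antigen presentation genes, B2m and H2-K1 overlapped between all genotypes, whereas the Tet tcKO libraries of H2-D1 lay above all others. B2m, the light chain shared by all classical class I molecules, was at 12.01, 8.65 and 9.45 CPM in Cre−, at 7.56, 4.36 and 13.4 CPM in tHet and at 10.99, 8.96 and 6.14 CPM in Tet tcKO. The 3 genotypes overlapped, and the widest spread was within tHet. The limma log2FC was −0.22 against Cre− with a 95% interval from −0.93 to 0.49, and 0.13 against tHet with an interval from −0.57 to 0.84, a value that edgeR with its TMM scaling gave as −0.0045. H2-K1, a classical heavy chain, was at 4.77, 4.84 and 5.40 CPM in Cre−, at 3.60, 2.91 and 4.83 CPM in tHet and at 5.82, 4.41 and 3.97 CPM in Tet tcKO. These ranges overlapped as well, with a limma log2FC of −0.09 against Cre− (95% interval from −0.72 to 0.55), which became 0.062 without CT010467.1 in the totals, and 0.30 against tHet (95% interval from −0.33 to 0.93).

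H2-D1, the other classical heavy chain here, was at 21.1, 20.9 and 18.2 CPM in Cre−, at 15.8, 12.2 and 21.3 CPM in tHet, and at 49.8, 30.4 and 23.9 CPM in Tet tcKO. Every Tet tcKO library lay above every other library, and Tet tcKO replicate 1 stood apart from replicates 2 and 3. The limma log2FC was 0.71 ± 0.27 in Tet tcKO versus Cre− (adjusted p of 0.157) and 1.03 ± 0.27 in Tet tcKO versus tHet (adjusted p of 0.0271), with 95% intervals from 0.14 to 1.28 and from 0.46 to 1.60. Without Tet tcKO replicate 1 the log2FC against Cre− was 0.42, and without tHet replicate 3 the log2FC against tHet was 1.23 with a limma adjusted p of 0.00419, past the threshold. Without CT010467.1, limma gave H2-D1 an adjusted p of 0.00822 against tHet, also past the threshold, in a range from 0.00395 to 0.234 over all alternatives (limma, edgeR or DESeq2). Class I heavy chains are close relatives, and 3.59% of the 100-base windows of H2-D1 transcripts and 0.957% of those of H2-K1 occur in other genes.

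Apobec3, a cytidine deaminase that restricts retroviruses, was at 0.942, 1.78 and 1.35 CPM in Cre−, at 2.02, 1.66 and 1.52 CPM in tHet and at 3.74, 3.16 and 2.35 CPM in Tet tcKO, that is 16 to 32 reads per control library and 39 to 63 reads per Tet tcKO library. All Tet tcKO libraries lay above all others, and Cre− and tHet overlapped. The limma log2FC was 0.95 ± 0.33 in Tet tcKO versus Cre− (adjusted p of 0.0988) and 0.67 ± 0.33 in Tet tcKO versus tHet (adjusted p of 0.296), neither past the threshold. The exons of Apobec3 overlap those of Cbx7 on the opposite strand by 100 bp and those of D730005E14Rik on the same strand by 676 bp. Cbx7 had means of 33.7 CPM in Tet tcKO and 31.7 in Cre−. Of the 100-base windows of Apobec3 transcripts 4.03% occur in D730005E14Rik, whose level is not given here. The part of that gene in the reads of Apobec3 was not tested.

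**Figure D2:**
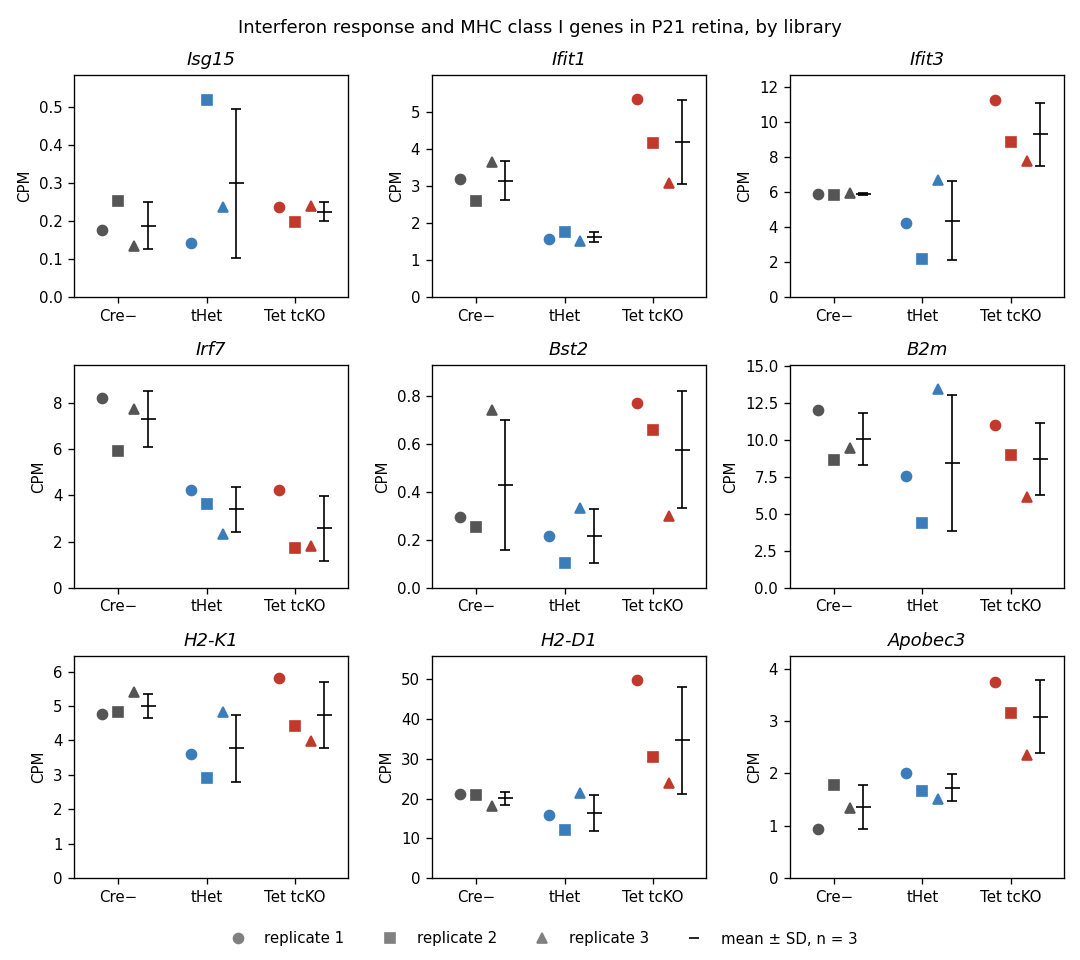
CPM of each of the 9 genes in every library (marker shapes are replicates 1 to 3), with the mean and SD of the 3 libraries of each genotype beside them and all axes from 0. Ifit3, H2-D1 and Apobec3 have all 3 Tet tcKO libraries above all others, Irf7 has all Cre− libraries above all others, and Isg15 and Bst2 stay under 1 CPM.

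Counted over the set, none of the 8 tested genes passed the threshold in limma in any comparison. In Tet tcKO versus Cre−, 0 of 8 were called, against 768 of all 21330 tested genes (3.60%). By other tools, edgeR's quasi-likelihood test called 0 (background of 3.49%) and DESeq2 called 1, Irf7 (background of 5.37%), as did limma with the replicate block (background of 5.28%). At an unadjusted limma p under 0.05 there were 3, Irf7, Apobec3 and H2-D1, against a background of 16.1% of all genes. In this comparison 3 of the 8 genes had every Tet tcKO library above every Cre− library (10.0% of all genes) and 1 had every library below (9.60%). The median log2FC of the 8 genes was 0.28, beside 0.0012 for all tested genes.

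In Tet tcKO versus tHet, limma called 0 of 8 genes (background of 3.00%). EdgeR called 0 (background of 2.85%) and DESeq2 called 2, Ifit1 and H2-D1 (background of 4.90%). At an unadjusted limma p under 0.05 there were 3, Ifit1, H2-D1 and Ifit3 (background of 17.5%). All libraries were higher in Tet tcKO for 4 genes, Ifit1, Ifit3, H2-D1 and Apobec3 (7.35% of all genes), and lower for 0 (9.68%). The median log2FC was 0.62, beside −0.056 for all tested genes. The Tet tcKO libraries are common to both comparisons, whose values are therefore not independent of each other.

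In tHet versus Cre−, limma called 0 of 8 genes (background of 0.0422%), as did edgeR (0.00469%) and DESeq2 (0.188%). At an unadjusted limma p under 0.05 there were 2, Irf7 and Ifit1 (background of 4.55%), and these 2 had every tHet library below every Cre− library (5.37% of all genes). For 0 genes was every tHet library higher (5.78%). The median log2FC was −0.37, beside 0.057 for all tested genes, and 7 of the 8 values were negative. With 3 libraries against 3, an exact two-sided permutation test of a single gene cannot go below p = 0.1. CT010467.1 takes a varying part of the reads, and leaving it out of the totals raised the median log2FC of all tested genes by 0.152 in Tet tcKO versus Cre− and by 0.134 in Tet tcKO versus tHet.

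**Figure D3:**
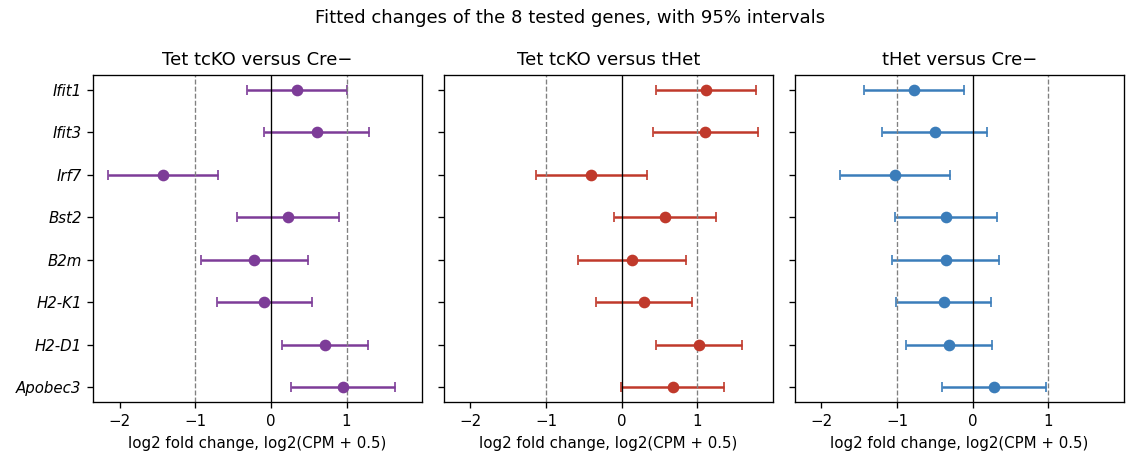
Fitted log2 fold changes on log2(CPM + 0.5), with 95% intervals, of the 8 tested genes in 3 comparisons. Dashed lines mark a log2 fold change of 1 in either direction. The interval of Irf7 lies below 0 in both comparisons with Cre−, and those of Ifit1, Ifit3 and H2-D1 lie above 0 in Tet tcKO versus tHet.

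The rest of the pathway was read from fixed lists, from ligand to target. Of 21 interferon ligand genes, 12 had 0 reads in every library, Ifnb1 among them, which allows a level of up to 0.142 to 0.312 CPM in a library (3 reads, counting error only). The only ligand tested was Ifnk, with 0.0602 to 1.35 CPM across libraries and no call. Of 16 interferon receptor and signalling genes, all tested, 1 was called higher in Tet tcKO against Cre−, where 2.03% of all genes were called higher, and the same gene against tHet (1.39%). This was Socs3, an inhibitor of JAK signalling that cytokines induce. Socs3 was at 1.53, 1.78 and 2.63 CPM in Cre−, at 1.08, 2.80 and 2.32 CPM in tHet and at 11.0, 9.03 and 5.90 CPM in Tet tcKO. Its Tet tcKO libraries lay above all others, with a limma log2FC of 1.87 ± 0.36 against Cre− (adjusted p of 0.00197) and 1.86 ± 0.36 against tHet (adjusted p of 0.00235). Without Tet tcKO replicate 1, the highest library, the limma adjusted p of Socs3 was 0.0247 against Cre− and 0.0312 against tHet, and without tHet replicate 1 or Tet tcKO replicate 3 it was 0.027 and 0.0107 against tHet, which ended the call. With no filter on low values it was 0.0114 and 0.013, so that the call was lost in 2 of 20 alternatives against Cre− and 4 of 20 against tHet. EdgeR and DESeq2 called Socs3 against both controls. The median log2FC of the list was 0.090 against Cre−.

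Among 45 further type I interferon-stimulated genes, 33 were tested and 0 were called by limma in any comparison. Against Cre−, edgeR (background of 3.49%) and DESeq2 (background of 5.37%) each called 1, Samd9l. Against tHet, edgeR called 1, Parp14 (background of 2.85%), and DESeq2 called 2, Parp14 and Samd9l (background of 4.90%). Parp14 was named after its values were seen. At an unadjusted limma p under 0.05, 6 of the 33 were positive and 0 negative in Tet tcKO versus Cre−, where 8.59% of all tested genes were positive at that p, and the same counts held in Tet tcKO versus tHet (6.90%). The median log2FC was 0.071 against Cre− and 0.13 against tHet. Among genes with a mean above 1 CPM, the largest values against Cre− were those of Samd9l, an interferon-inducible antiviral factor, and Trim30a. Samd9l was at 10.3 ± 2.44 CPM in Tet tcKO, beside 3.91 ± 0.921 in Cre− and 5.11 ± 1.43 in tHet, with a limma log2FC of 1.28 ± 0.31 and an adjusted p of 0.0128 against Cre−. With the replicate block its limma adjusted p was 0.00203, in a range from 4.5e-05 to 0.0927 over all alternatives. Without Cre− replicate 1 the limma log2FC was 1.44 with an adjusted p of 0.00789, and without tHet replicate 3 the adjusted p was 0.00552, both past the threshold. Trim30a was at 0.608 to 0.827 CPM in Cre−, 0.805 to 1.08 CPM in tHet and 1.05 to 2.55 CPM in Tet tcKO, with a limma adjusted p of 0.146.

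Of 20 interferon-gamma responsive genes, 13 were tested and 0 called by limma, or by edgeR. DESeq2 called 1 against tHet (background of 4.90%), Iigp1, named after its values were seen. Of these 13 genes, 12 had a positive log2FC against Cre−, as did 50.1% of all tested genes, with a median of 0.48. An unadjusted limma p under 0.05 was found for 3 of the 13, all positive, and for 8.59% of all tested genes in that direction. The guanylate-binding proteins Gbp3 and Gbp7, which attack the vacuoles of intracellular pathogens, had the largest values above 1 CPM. Gbp3 was at 10.4 ± 1.42 CPM in Tet tcKO, beside 5.29 ± 0.478 in Cre− and 4.56 ± 2.98 in tHet, with limma adjusted p of 0.18 against Cre− and 0.0391 against tHet, the latter 0.000909 without tHet replicate 3, which is past the threshold. Gbp7 was at 10.7 ± 2.34 CPM in Tet tcKO, beside 5.96 ± 0.918 in Cre− and 5.88 ± 0.814 in tHet, with limma adjusted p of 0.122 and 0.114. All Tet tcKO libraries of both genes lay above all others. Of the 100-base windows of Gbp7 transcripts 10.0% occur in other genes.

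Of 18 other class I heavy chain genes, 10 were tested, and limma called 1 of them higher in Tet tcKO versus Cre− (2.03% of all genes called higher) and 2 in Tet tcKO versus tHet (1.39%). H2-Q6, a nonclassical class I gene, was at 0.648, 1.02 and 1.49 CPM in Cre−, at 0.792, 0.519 and 1.42 CPM in tHet and at 5.94, 5.80 and 5.24 CPM in Tet tcKO. Every Tet tcKO library lay above every other library, and the limma log2FC was 2.02 ± 0.34 against Cre− (adjusted p of 0.000656) and 2.17 ± 0.34 against tHet (adjusted p of 0.000391). H2-Q6 was called against both controls under each of the 20 alternatives, with log2FC values from 1.72 to 2.46 against Cre− and from 1.83 to 2.61 against tHet. H2-Q4, named after its values were seen, was called by limma against tHet, with a limma log2FC of 1.73 ± 0.38 (adjusted p of 0.00672) beside 1.44 ± 0.38 against Cre− (adjusted p of 0.0225). With the replicate block the value against Cre− had a limma adjusted p of 0.0027, past the threshold, as it had without tHet replicate 3 (0.00591). The call against tHet was lost in 11 of 20 alternatives, with limma adjusted p of 0.0111 to 0.0761 without any 1 of tHet replicates 1 and 2 and Tet tcKO replicates 1, 2 and 3, and edgeR did not make it (adjusted p of 0.0295). Its means were 5.26 CPM in Tet tcKO, beside 1.64 in Cre− and 1.39 in tHet. Of the 100-base windows of H2-Q6 transcripts 10.8% occur in other genes, mostly H2-Q7, and 2.16% of those of H2-Q4, so part of the division of reads within the family is uncertain.

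Of 14 genes for class I peptide loading and the immunoproteasome, 13 were tested and 0 called by limma, edgeR or DESeq2. At an unadjusted limma p under 0.05 there were 0 against Cre− (16.1% of all genes) and 2 against tHet, both higher (6.90% of all genes in that direction). The median log2FC of the list was 0.16 against Cre− and 0.28 against tHet. Tap1, a subunit of the peptide transporter, was at 2.19 ± 0.230 CPM in Tet tcKO, beside 1.49 ± 0.315 in Cre− and 1.23 ± 0.840 in tHet, with a limma adjusted p of 0.676 against Cre−. Tapbpl, a peptide editor of class I, was at 8.37 ± 0.548 CPM in Tet tcKO, beside 6.40 ± 0.495 in Cre− and 6.82 ± 0.343 in tHet, with a limma adjusted p of 0.616. Of 10 MHC class II genes, 2 were tested and 0 called by limma, edgeR or DESeq2, with 0 unadjusted limma p under 0.05. H2-DMa, a class II peptide exchange factor, was at 1.48 ± 0.439 CPM in Tet tcKO and 1.08 ± 0.0724 in Cre−.

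Of 25 nucleic acid sensors and adaptors, 23 were tested and 0 called by limma or edgeR. DESeq2 called 1 against tHet (background of 4.90%), Ifih1, named after its values were seen. At an unadjusted limma p under 0.05, 1 was lower and 0 were higher against Cre−, where 16.1% of all genes were under that p in either direction. Against tHet 4 were higher, as were 6.90% of all genes, and 0 were lower. Rnaseh2b, a subunit of the enzyme that removes RNA from RNA-DNA hybrids, was at 4.93 ± 0.748 CPM in Tet tcKO, beside 8.96 ± 2.12 in Cre− and 7.06 ± 2.08 in tHet, with a limma adjusted p of 0.152 against Cre−. Ticam1, an adaptor of Toll-like receptors, was at 4.74 ± 0.981 CPM in Tet tcKO and 2.85 ± 0.225 in Cre−, with a limma adjusted p of 0.327. Of 4 other cytidine deaminases of the AID and APOBEC family, 3 were tested and 1 was called lower in Tet tcKO, against Cre− (1.57% of all genes called lower) and against tHet (1.61%). This was Apobec2, best known from muscle. It was at 5.24, 4.14 and 3.58 CPM in Cre−, at 5.33, 7.17 and 5.54 CPM in tHet and at 0.178, 2.24 and 0.843 CPM in Tet tcKO. All Tet tcKO libraries of Apobec2 lay below all others, with a limma log2FC of −1.81 ± 0.40 (adjusted p of 0.00684) against Cre− and −2.25 ± 0.40 (adjusted p of 0.00124) against tHet. The call against Cre− was lost in 9 of 20 alternatives, among them edgeR (adjusted p of 0.0346) and limma without Cre− replicate 1 (0.011), Cre− replicate 3 (0.0177), Tet tcKO replicate 1 (0.0692, log2FC of −1.31) or Tet tcKO replicate 3 (0.0597). Against tHet it was lost in 4, among them edgeR (adjusted p of 0.0165) and limma without Tet tcKO replicate 1 (0.0148) or replicate 3 (0.0285). In tHet versus Cre−, limma, edgeR and DESeq2 called 0 genes of any of these lists.

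**Figure D4:**
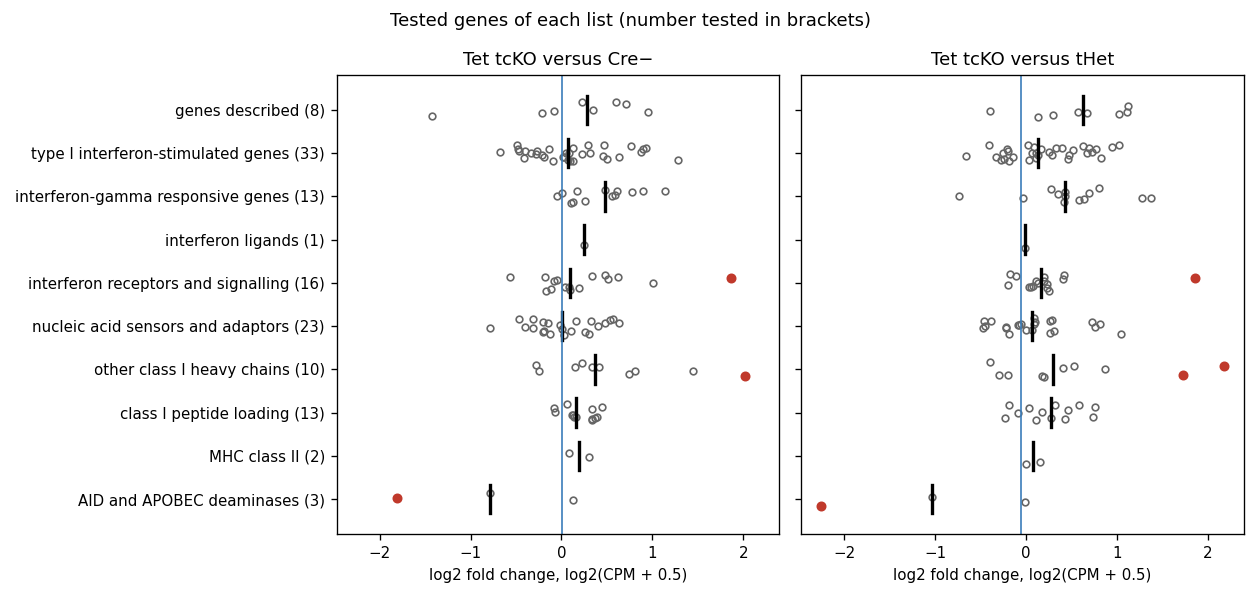
Log2 fold changes on log2(CPM + 0.5) of the tested genes described here and of each pathway list, for Tet tcKO against each of the controls. Filled red points passed the threshold, short black lines are list medians, and the blue line is the median of all tested genes. Socs3, H2-Q6 and Apobec2 are the called genes in both panels, and H2-Q4 in that against tHet.

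Markers of other cell types were read in the same libraries. The 14 microglia and macrophage markers had a summed level of 31.6 to 40.3 CPM in Cre−, 38.7 to 51.7 CPM in tHet and 43.6 to 87.1 CPM in Tet tcKO. Of these 14 markers, all detected and tested, 13 had a positive log2FC in Tet tcKO versus Cre− (50.1% of all genes), with a median of 0.51. In that comparison limma called 1 higher (2.03% of all genes), Cx3cr1, at 21.1 ± 7.88 CPM in Tet tcKO, 13.1 ± 3.63 in tHet and 7.99 ± 2.07 in Cre− (limma adjusted p of 0.00935). That call was lost in 10 of 20 alternatives, with limma adjusted p of 0.0121 to 0.101 without any 1 of Cre− replicates 2 and 3 and Tet tcKO replicates 1, 2 and 3. Against tHet, 12 of the 14 were positive (44.3% of all genes), with a median of 0.57, and limma called 0, with an adjusted p of 0.283 for Cx3cr1. In Tet tcKO replicates 1, 2 and 3 the summed level was 87.1, 63.5 and 43.6 CPM, and 7 of the 9 genes of the set had the same order in these libraries (Ifit1, Ifit3, Bst2, B2m, H2-K1, H2-D1 and Apobec3), among them genes whose values overlapped between genotypes. The share of all genes with this order was not counted, so the 7 have no background beside them. Leaving out Tet tcKO replicate 1, 2 or 3 shifted the log2FC of all tested genes against Cre− by medians of −0.0423, −0.0996 and 0.143 in turn. These libraries thus also differed over genes at large. The part of microglia in the values of H2-D1, Apobec3, Ifit3, H2-Q6 and Socs3 was not tested. The 10 endothelial markers summed to 273 to 284 CPM in Cre−, 223 to 269 CPM in tHet and 211 to 335 CPM in Tet tcKO. Kdr and Flt1 had by far the highest means of these markers, so the sum mainly follows them. The mean of Kdr was higher in Tet tcKO (202 CPM) than in Cre− (137 CPM), whereas that of Flt1 was lower (32.9 against 116 CPM). Pecam1, the next highest, had a Cre− mean of 8.89 CPM. The sum is therefore no measure of the remaining markers. Of the 10 markers, 0 were called higher and 1, Flt1, was called lower by limma, edgeR and DESeq2 against each control. Against Cre−, 7 of the 10 had a positive log2FC (50.1% of all genes), with a median of 0.24. At an unadjusted limma p under 0.05, 4 were higher (8.59% of all genes) and 1 was lower. Against tHet, 7 were positive (44.3%), with a median of 0.39, and 3 were higher (6.90%) and 1 lower at that p. The part of endothelial cells was not tested. Lymphocyte and granulocyte markers were near 0, with a summed level of 0.405 to 1.65 CPM over 12 genes in all libraries, none of them above the filter.

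Beside the values of Irf7, the summed level of the red blood cell markers was 32.8 to 51.5 CPM in Cre−, 25.6 to 52.6 CPM in tHet and 15.7 to 32.9 CPM in Tet tcKO. Of these 5 markers, 4 had a negative log2FC in Tet tcKO versus Cre−, with 0 called by limma or edgeR. At an unadjusted limma p under 0.05, 4 were lower, beside 16.1% of all genes in either direction, of which the higher ones made up 8.59% of all genes. DESeq2 (background of 5.37%) and limma with the replicate block (5.28%) each called 2 of the markers lower, Hbb-bs and Hba-a1. The part of red blood cells in the value of Irf7 was not tested. Pigment epithelium markers had a summed level of 34.4 to 149 CPM in Cre−, 127 to 205 CPM in tHet and 37.1 to 50.2 CPM in Tet tcKO. Limma called 1 of 6 lower against Cre− (1.57% of all genes) and 4 against tHet (1.61%), where edgeR called 1 and DESeq2 3. Mueller glia markers had 2 of 6, Rlbp1 and Glul, called lower against each control by limma, edgeR and DESeq2 (limma background of 1.57% and 1.61% called lower). Against each control, 4 of the 6 had a negative log2FC and 2 a positive one. At an unadjusted limma p under 0.05, 2 were lower and 1, Dkk3, was higher against each control (16.1% and 17.5% of all genes in either direction). Of the 7 reactive glia markers, limma and edgeR called 0. At an unadjusted limma p under 0.05, 1 was higher and 2 were lower against Cre− (16.1% of all genes in either direction), and 2 were lower against tHet (17.5%). DESeq2 called 1 lower against Cre−, Edn2 (background of 5.37% in either direction), and limma with the replicate block 2, Serpina3n and Edn2 (5.28%). Retinal neuron markers had 1 of 8 called higher and 2 called lower against each control by limma, edgeR and DESeq2. Limma called 2.03% of all genes higher and 1.57% lower against Cre−, and 1.39% higher and 1.61% lower against tHet.

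**Figure D5:**
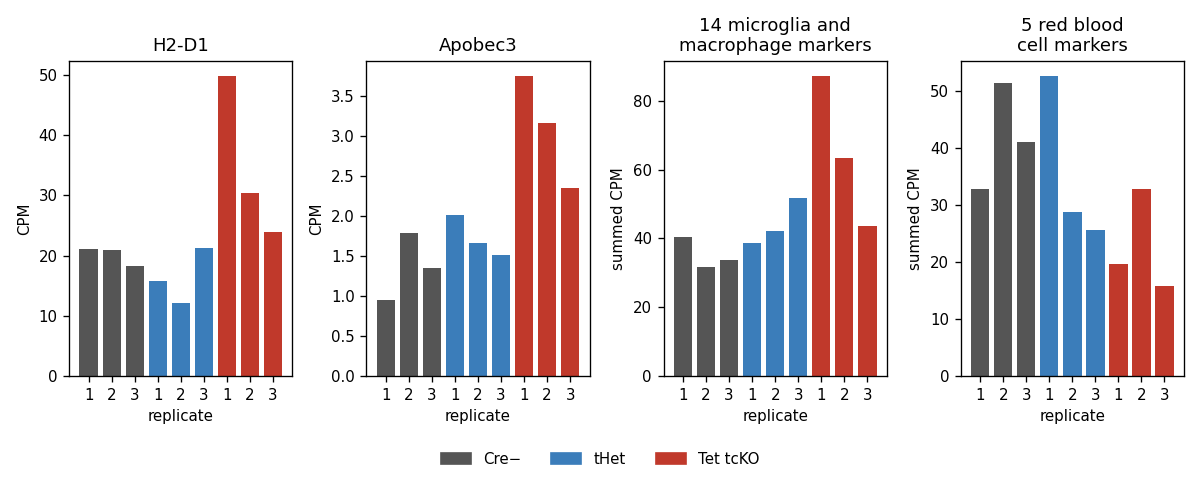
CPM of H2-D1 and Apobec3, and summed CPM of 14 microglia and macrophage markers and 5 red blood cell markers, as bars from 0 for each library of Cre−, tHet and Tet tcKO. H2-D1, Apobec3 and the microglia sum are highest in Tet tcKO replicate 1.

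The genes whose pattern over the 9 libraries was most like that of the set were found by Pearson's r with the mean of the 8 scaled genes. Among the 21322 other tested genes the 5 closest were Rpp25 (r of 0.977), Rac1 (0.970), Sox2 (0.962), Cdkn2aipnl (0.962) and Pnmal1 (0.961). All 5 had their lowest mean in tHet and their highest in Tet tcKO, for example 29.2 CPM in Tet tcKO, beside 23.3 in Cre− and 17.5 in tHet for Sox2. The libraries share their depth across genes, and a search of this size finds high values of r among 9 libraries, so these are descriptions only.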

How the data were processed

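Genotype and replicate number came from the sample labels. The authors removed ribosomal RNA, prepared stranded libraries, trimmed reads with Trim Galore 0.6.7, aligned them to mm10 with STAR 2.7.0f and counted them on genes with HTSeq 0.11.2. The annotation release, strand and overlap settings are not given in the sources used here. The authors deposited CPM per gene, scaled to plain library totals. The deposited table also holds their fold changes, p-values and mean columns, which were not used. All positive CPM (100%) were whole multiples of 1 read within 0.1 reads, so reads were recovered. Read floors cover counting error only.

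The 21330 genes that reached 0.5 CPM in 3 or more libraries were compared in R 4.3.3 by limma 3.58.1 on log2(CPM + 0.5) (all 9 libraries, intensity trend, Benjamini-Hochberg adjustment) and called at an adjusted p under 0.01 and an absolute log2FC of at least 1. The design kept these thresholds from the study's methods. EdgeR 4.0.16 and DESeq2 1.42.0 on recovered reads, other scalings, filters and pseudocounts, the replicate block and leaving out libraries were alternatives, and the fits were tested on simulated data. Replicate numbers come from the labels, and libraries of 1 number are different animals. Their deviations from the group means correlated with r of 0.56, 0.352 and 0.148 between Cre− and Tet tcKO, all over 0.1, so the block is given there. Between libraries of unlike number in these genotypes, r ran from −0.465 to 0.2265 (Cre− replicate 2 with Tet tcKO replicate 3). An r over 0.1 was therefore not confined to libraries of the same number. P-values measure the spread between these pools of animals.

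All 9 members, and from each pathway list the called genes (at most 4) or otherwise the 2 largest log2FC above 1 CPM, were named. Members and lists were chosen with earlier results of these data known. All 9 member identifiers were found in GENCODE release 21, 7 with the same version. Promoters came from RefSeq on GRCm38.p6. Shared sequence was the share of 100-base transcript windows also found in other genes. Figures were drawn with matplotlib in Python.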

Additional observations from a re-analysis of the deposited data

How the results depend on the processing

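The count of called genes in Tet tcKO versus Cre− went from 0 to 1 (Irf7, lower) with DESeq2, with the replicate block, with only the 6 libraries compared and at an adjusted p under 0.05, and lay between 0 and 1 when a library was left out. In Tet tcKO versus tHet it went from 0 to 2 (Ifit1 and H2-D1) without CT010467.1, with DESeq2 and at an adjusted p under 0.05, to 1 (H2-D1) with the replicate block and with only the 6 libraries compared, and lay between 0 and 2 when a library was left out. Without tHet replicate 3 the 2 were H2-D1 and Ifit3. In tHet versus Cre− it was 0 under every alternative run. In the comparisons with tHet, libraries of the same number did not all deviate together (5 of 9 pairs over all comparisons had an r over 0.1), so the block there tracks a shared number only. Of 466 single log2FC values under alternatives, 447 kept direction and call, 13 kept direction and became called, and 6 changed sign. These were H2-K1 in Tet tcKO versus Cre− without CT010467.1 (0.062) and without Tet tcKO replicate 3 (0.021), B2m in Tet tcKO versus tHet with edgeR (−0.0045), without tHet replicate 2 (−0.24) and without Tet tcKO replicate 1 (−0.043), and B2m in tHet versus Cre− without tHet replicate 2 (0.020). Over the libraries left out in turn, these values ran from −0.23 to 0.021 for H2-K1, from −0.24 to 0.52 for B2m in Tet tcKO versus tHet and from −0.74 to 0.020 for B2m in tHet versus Cre−. The cause was not tested. All genes called numbered 768 in Tet tcKO versus Cre− (434 higher, 334 lower) and 835 without CT010467.1 (613 higher, 222 lower). In Tet tcKO versus tHet they numbered 640 (297 higher, 343 lower) and 642 (427 higher, 215 lower). Depth limits Isg15 and Bst2, which had at most 5 and 13 reads per library.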
